A study of Mus musculus with 2 samples.

Results

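The Rab GTPases on the array were the 59 genes, of 37073 gene names, whose array symbol was Rab followed by a number and at most 1 letter from a to d, so that their effectors and regulators were left out. The series concerns the loss of GPHR, the Golgi pH regulator, an anion channel of Golgi membranes that is encoded in the mouse by Gpr89. Brain RNA of C57BL/6J mice at postnatal day 10 came from 1 GPHR F/F;Nes sample and 1 GPHR F/F littermate control, each hybridised to 1 single-colour Agilent expression array. Both samples carried GPHR F/F, and only the first carried Nes, which the labels do not spell out. The labels give neither the deleted exons nor the number of animals per sample, and with n = 1 per genotype there is no replicate to set a difference against, so values are given with no test.

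Rab proteins are small GTPases that switch between a GDP-bound form held in the cytosol and a GTP-bound form on a membrane. Each Rab marks particular membranes, and through its effectors it directs the budding, transport, tethering and fusion of vesicles there. In neurons some Rabs serve synaptic vesicle release and the long-range traffic of endosomes, whereas others are best known from epithelium, blood cells or pigment cells.

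All differences are log2 values of GPHR F/F;Nes minus those of GPHR F/F, after each array was set to its own 75th percentile (173.4 units in GPHR F/F;Nes and 259.5 units in GPHR F/F). Equal raw units therefore correspond to a higher normalised signal in GPHR F/F;Nes. The error after ± is the technical error that the scanner software reports, which leaves out differences between animals. The targeted gene, Gpr89, gave 20.0 units in GPHR F/F;Nes and 43.3 units in GPHR F/F, a difference of -0.53 ± 0.22, and its single probe checks the deletion only if it lies within the deleted part. Xist, which is transcribed from the inactive X chromosome, gave 234 units in GPHR F/F;Nes and 1.36 units in GPHR F/F, where it was at background. Of 4 Y-linked genes, 3 (Eif2s3y, Ddx3y, Uty) had signal above background only in GPHR F/F, and Kdm5d was measured on both arrays. Apart from Kdm5d, this is the pattern of female RNA in GPHR F/F;Nes and male RNA in GPHR F/F, although the labels give no sex. Sex and genotype therefore cannot be told apart in any difference given below.

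Of the 59 Rab genes, 53 were measured, meaning that at least 1 probe was well above background on both arrays. Rab7b, Rab32 and Rab29, listed here under late endosome and lysosome, were at least 2-fold higher in GPHR F/F;Nes. By the same measure 0 Rab genes were at least 2-fold lower. These 3 genes are 5.66% of the measured Rab genes, against 7.93% of the 23948 genes measured on the whole array that were at least 2-fold higher. At least 2-fold lower were 1.37% of all genes. In bulk brain RNA, fewer cells of a type and less RNA per cell cannot be told apart. With spike-in scaling 0 Rab genes were at least 2-fold higher and 37 were at least 2-fold lower, and after median centring 2 were at least 2-fold higher and 5 lower. At a threshold of 1.5-fold, 5 Rab genes (9.43%) were higher and 7 (13.2%) lower, against 18.1% and 5.69% of all genes. At 3-fold, only Rab7b was higher, against 2.29% of all genes, and 0 Rab genes were lower, against 0.251% of all genes. The members past 1.5-fold but short of 2-fold were Rab13 and Rab31 on the higher side and Rab33a, Rab40b, Rab40c, Rab26, Rab15, Rab4b and Rab3c on the lower side.

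The median difference of the measured Rab genes was -0.10, against 0.07 over all genes, and 34 of the 53 (64.2%) lay below 0, against 43.0% of all genes. Among the 5737 genes at or above the median level of the Rab genes, the median was -0.07 and the share below 0 was 58.6%. For 22 Rab genes the difference was within the scanner error. The family thus gave mostly small differences, with longer tails among a few members on both sides, as the plot of all measured members by compartment shows.

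**Figure D1:**
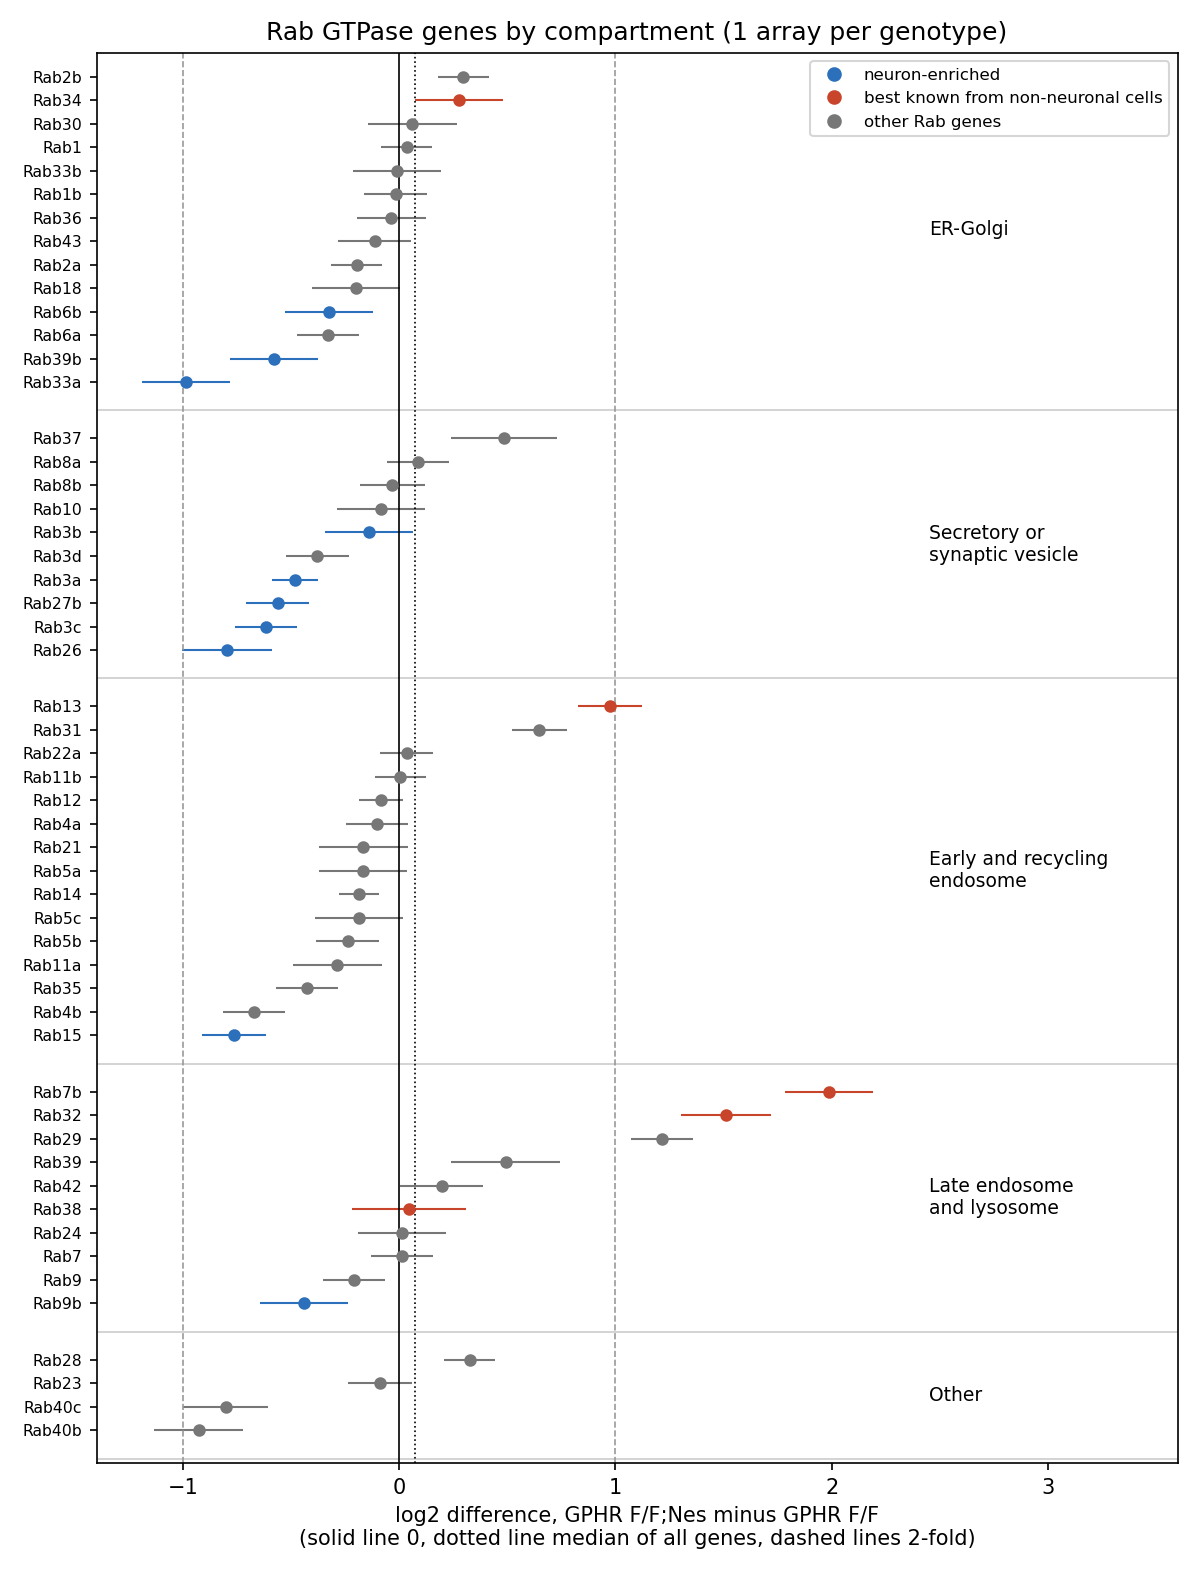
Log2 difference (GPHR F/F;Nes minus F/F control, x axis) of the 53 measured Rab genes, grouped by compartment; each point is 1 gene and each bar the scanner software's error. Rab7b, Rab32 and Rab29 lie to the right of the upper 2-fold line, no point lies to the left of the lower one, and all 10 neuron-enriched genes lie left of 0.

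The late endosome and lysosome group held the 3 genes past 2-fold and was the compartment group with the highest median. Each member was filed under a single compartment. Rab7b and Rab29 were filed here, although both also serve traffic at or to the Golgi, and no other grouping of them was tried. Of the group's 10 members, all measured, 8 lay above 0 and 2 below, with a median of 0.12. Over all genes 43.0% lay below 0 and the median was 0.07, the values to set beside each compartment group. Under the stricter filter on dim probes the group's median was 0.01 over 6 genes. Its median stood at -0.15 after median centring and at -0.91 with spike-in scaling, so its sign rests on the scaling. Without the X-linked members Rab9 and Rab9b it was 0.34.

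Rab7b, a Rab of late endosomes and of traffic from endosomes to the Golgi, gave 715 units in GPHR F/F;Nes and 270 units in GPHR F/F. The difference was 1.99 ± 0.20, a 3.96-fold higher normalised signal, and the farthest from 0 of any member. This probe lies on the plus strand of chromosome 1 at chr1:133609265-133609324 of mm9. A second Rab7b probe was dim, with 9.50 units in GPHR F/F;Nes, well above background, and 2.18 units in GPHR F/F, not well above it. The second probe passed background only on the GPHR F/F;Nes array, so the Rab7b difference rests on the first probe alone.

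Rab32, which acts at lysosome-related organelles such as melanosomes and at mitochondria, gave 96.4 units in GPHR F/F;Nes and 50.7 units in GPHR F/F. It rose by 1.51 ± 0.21 (2.85-fold) on its single probe at chr10:10265134-10265193 of mm9, minus strand. After normexp background correction with quantile normalization its difference was 0.79, below the 2-fold line. Rab38, its close relative in melanosome formation, was dim, with 12.5 units in GPHR F/F;Nes and 18.2 units in GPHR F/F, a difference of 0.05 ± 0.26. The 2 genes with the same classical role therefore stood far apart on this pair of arrays, the dimmer one within its error of 0.

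Rab29, formerly Rab7L1, recruits the Parkinson's disease kinase LRRK2 to Golgi and lysosomal membranes. It gave 392 units in GPHR F/F;Nes and 253 units in GPHR F/F, and rose by 1.22 ± 0.14 (2.32-fold). Its 2 probes stood at 1.17 and 1.26, and after median centring the gene stood at 0.94. With spike-in scaling Rab7b, Rab32 and Rab29 all stayed above 0, at 0.95, 0.48 and 0.18, but under 2-fold. Lrrk2 itself gave 104 units in GPHR F/F;Nes and 155 units in GPHR F/F, a difference of 0.01 ± 0.20.

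The promoter of Rab29 is shown because it belongs to 1 of the 3 members past 2-fold and holds the ACGTGGC letters of the Golgi stress response element, which the transcription factor TFE3 is known to bind. These are the 250 bases before the RefSeq start (chr1:131867027-131867276, plus strand, GRCm38.p6), with that match in capitals, 134 bases before the start.
Rab29 promoter: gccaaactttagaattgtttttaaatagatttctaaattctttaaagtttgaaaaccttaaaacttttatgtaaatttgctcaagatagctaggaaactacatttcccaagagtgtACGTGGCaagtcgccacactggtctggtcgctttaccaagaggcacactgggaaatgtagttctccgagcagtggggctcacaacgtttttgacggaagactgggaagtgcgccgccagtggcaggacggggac
Rab24 promoter: ggggtgggggggACGTGGCtaggcgcacgc
The second sequence is a 30-base stretch of the Rab24 promoter (chr13:55322107-55322136, minus strand, GRCm38.p6) with the same match in capitals. Both strands were searched, and RefSeq promoters were found for 48 of the 59 members, 60 promoters in all. The letters occurred in 2 of these 60 (3.33%), those of Rab29 and Rab24, against 2.02% of 32851 promoters. Rab24, which is linked to autophagy, differed by 0.01 ± 0.20, so the 2 members with the match stood 1 past 2-fold and 1 at 0. The E-box CACGTG, searched for likewise, was in 8.33% of the member promoters (Rab5a, Rab20, Rab21, Rab23 and Rab27a), against 6.02% of all, and in neither Rab29 nor Rab24. A match is a string of letters and not a shown binding site.

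Rab7, the main Rab of late endosomes and lysosomes, gave 890 units in GPHR F/F;Nes and 1322 units in GPHR F/F, a difference of 0.01 ± 0.14. Rab9b, an X-linked relative of Rab9 that is enriched in neurons, was the lowest of the group, with 1000.02 units in GPHR F/F;Nes and 2029 units in GPHR F/F (-0.44 ± 0.20). Rab9, which returns mannose 6-phosphate receptors from late endosomes to the Golgi, differed by -0.21. The best known members of the compartment were thus at or below 0, and Rab42 (0.20) and Rab39 (0.49), both under 23 units on each array, lay between them and the 3 genes past 2-fold.

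**Figure D2:**
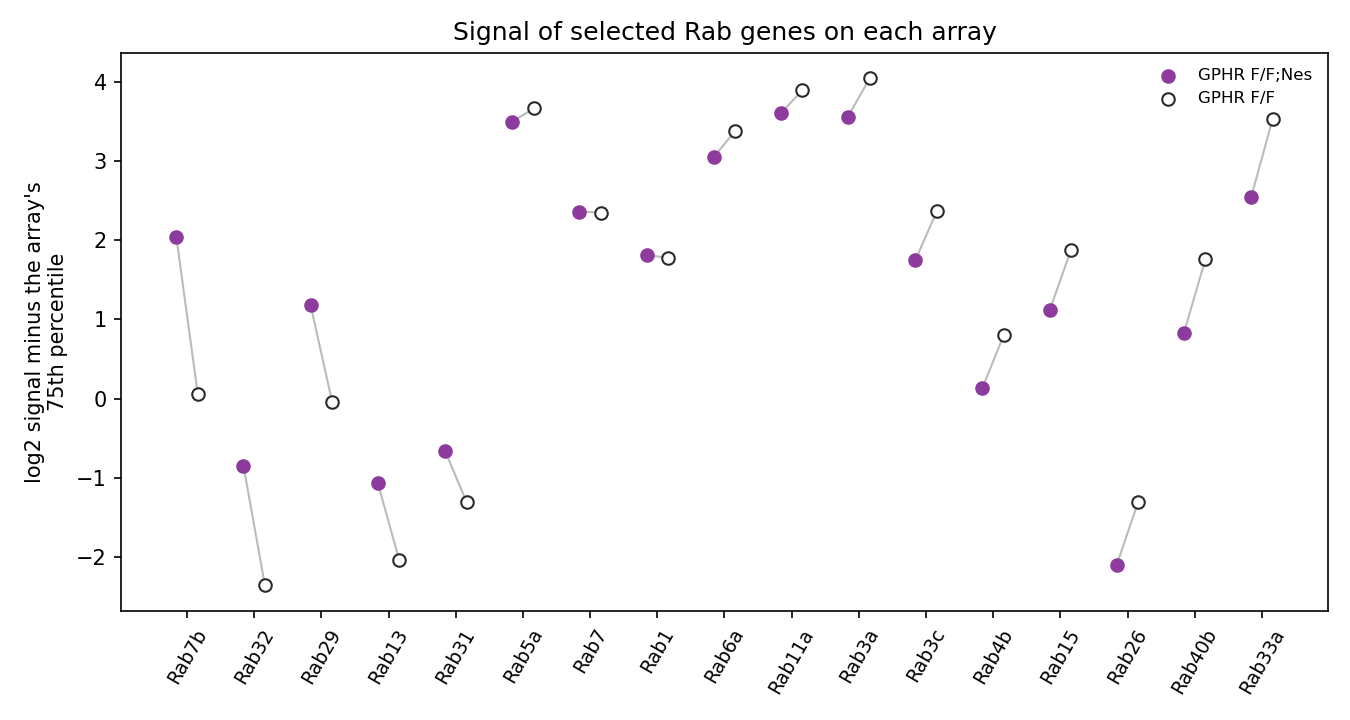
Log2 signal minus the array's 75th percentile (y axis) for 17 Rab genes, GPHR F/F;Nes as filled points to the left and GPHR F/F as open points to the right, 1 array each. Rab7b, Rab32, Rab29, Rab13 and Rab31 stand higher in GPHR F/F;Nes, Rab7 and Rab1 are nearly level, and the genes from Rab3a to Rab33a stand lower in GPHR F/F;Nes; heights of different genes are not comparable, since each has its own probes.

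The secretory and synaptic vesicle Rabs lay mostly below 0. Of 12 listed, 10 were measured, 8 of them below 0, and the median was -0.26. Without the neuron-enriched members it was -0.03 over 5 genes. The other secretory members thus centred near 0.

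Rab3a, the most abundant synaptic vesicle Rab and a regulator of neurotransmitter release, gave 2046 units in GPHR F/F;Nes and 4276 units in GPHR F/F, a difference of -0.48 ± 0.11. It is also the member with the best measured technical spread, since 1 of its 2 probes was spotted 10 times on each array. That probe gave 7910 ± 270.1 units in GPHR F/F;Nes and 15631 ± 426.5 units in GPHR F/F (SD over 10 spots of 1 array). In these raw units its spots ran from 7591 to 8407 in GPHR F/F;Nes and from 15139 to 16385 in GPHR F/F. The GPHR F/F array was brighter as a whole (75th percentile 259.5 units, against 173.4 units in GPHR F/F;Nes). The gap between the raw ranges therefore includes that difference in brightness. These spots share 1 RNA sample per genotype and are not biological replicates. After scaling the probe stood at -0.40, and the other Rab3a probe at -0.56.

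Rab26, which is found on synaptic vesicles and links them to autophagy, was the lowest of the group, with 40.6 units in GPHR F/F;Nes and 106 units in GPHR F/F (-0.80 ± 0.21). Rab37, known from mast cell granules, was the highest, with 19.5 units in GPHR F/F;Nes and 20.9 units in GPHR F/F (0.48 ± 0.25). The Rab3 relatives Rab3c, Rab3d and Rab3b stood at -0.62, -0.38 and -0.14, and the secretory Rab27b at -0.56. Rab8a, Rab8b and Rab10, which carry cargo from the Golgi to the plasma membrane and to cilia in many cell types, stood at 0.09, -0.03 and -0.08, each within its error of 0. The members farthest below 0 were thus Rab26, Rab3c, Rab27b and Rab3a, all from the neuron-enriched list.

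The early and recycling endosome Rabs had 15 of 18 members measured, 11 of them below 0, with a median of -0.17. Rab5a, which governs the fusion of early endosomes, gave 1955 units in GPHR F/F;Nes and 3286 units in GPHR F/F, a difference of -0.17 ± 0.20. Rab5b and Rab5c were close to it, at -0.24 and -0.19. Rab11a, the marker of recycling endosomes, gave 2109.7 units in GPHR F/F;Nes and 3850.0 units in GPHR F/F (-0.29 ± 0.20), while its relative Rab11b stood at 0.00 on 3 probes. The 3 Rab5 genes were thus slightly below 0, and Rab5b stood at -0.43 after quantile normalization, against -0.06 for Rab5a and -0.09 for Rab5c.

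Rab15, a neuronal Rab of early and recycling endosomes, was the lowest, with 376 units in GPHR F/F;Nes and 955 units in GPHR F/F (-0.77 ± 0.15, both probes below 0). Rab4b, a Rab of rapid recycling, stood at -0.67, and its better known relative Rab4a at -0.10. Rab13, which acts at tight junctions and in the recycling of their proteins, was the highest, with 82.8 units in GPHR F/F;Nes and 63.1 units in GPHR F/F (0.97 ± 0.15, just under 2-fold). Rab31, a Rab of the route between the Golgi and endosomes, stood at 0.65, with its 3 probes at 0.46, 0.56 and 0.92. These 4 genes were the members of the group past 1.5-fold, 2 on each side.

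The probes of Rab4b and Rab13 are shown because these genes stood far from 0 on opposite sides. In the Rab4b probe (chr7:27959796-27960855 of mm9, minus strand, split over 1060 bp on the genome) the capitals mark the codons of the switch II motif of the GTPase fold. The Rab13 probe (chr3:90027732-90028417 of mm9, plus strand) is split over 686 bp.
Rab4b probe: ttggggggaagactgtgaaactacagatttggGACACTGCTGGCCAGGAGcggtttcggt
Rab13 probe: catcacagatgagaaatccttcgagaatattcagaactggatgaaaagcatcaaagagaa
This Rab4b probe stood at -0.39 and the other one at -0.95. The Rab13 probe stood at 0.92 and the other one at 1.02. The direction was therefore the same for both probes of each gene.

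The ER-Golgi Rabs, the group nearest to the membrane where GPHR acts, had 14 of 15 members measured. With Rab7b and Rab29 counted under late endosome and lysosome, none of the 14 was past 2-fold. Of these, 10 lay below 0 and 4 above, with a median of -0.08, or -0.02 without the neuron-enriched members. Rab1 (now Rab1a), which drives transport from the ER to the Golgi, gave 609 units in GPHR F/F;Nes and 890 units in GPHR F/F, a difference of 0.03 ± 0.12. Rab1b, with the same function, stood at -0.02. Rab6a, which directs traffic within the Golgi and back to the ER, gave 1435 units in GPHR F/F;Nes and 2701 units in GPHR F/F (-0.33 ± 0.14). Rab2a, Rab18, Rab30, Rab33b and Rab43, other Rabs of these membranes, ran from -0.20 to 0.06. None of these 8 genes passed 1.5-fold.

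Rab33a, an X-linked Golgi Rab of brain and blood cells, was the lowest of the group and of all members, with 1011 units in GPHR F/F;Nes and 2999 units in GPHR F/F. Its difference was -0.99 ± 0.20, a 1.98-fold lower normalised signal and thus just short of the 2-fold line, on a single probe at chrX:45883332-45883391 of mm9, plus strand. Its relative Rab33b, which is expressed in most tissues and binds the autophagy protein Atg16l1, stood at -0.01. Rab39b, an X-linked gene linked to intellectual disability and early parkinsonism in humans, stood at -0.58 with 97.8 units in GPHR F/F;Nes and 219 units in GPHR F/F. The lowest members of the ER-Golgi group were thus its 2 X-linked neuronal genes.

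Rab2b, which acts between the ER and the Golgi like Rab2a, was nominally the highest of the group, with 361 units in GPHR F/F;Nes and 440.1 units in GPHR F/F (0.30 ± 0.12). Its 3 probes disagreed, at -0.23, -0.08 and 1.20. The first and the last are shown because the value of the gene turns on them. The first (chr14:52885946-52888345 of mm9, minus strand, split on the genome) holds the codons of the G4 motif that reads the guanine base, in capitals. The last (chr14:52893128-52893187 of mm9, minus strand) was designed to a cDNA that is not a curated RefSeq mRNA.
Rab2b coding probe: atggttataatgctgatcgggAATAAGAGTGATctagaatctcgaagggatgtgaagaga
Rab2b cDNA probe: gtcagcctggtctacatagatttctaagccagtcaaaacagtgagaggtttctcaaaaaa
The 2 probes to the curated Rab2b mRNA were both below 0, and the cDNA probe alone set the sign of the gene.

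Among members with a less defined site, 4 in all, Rab40b was the lowest. Rab40b and Rab40c carry a SOCS box and act with ubiquitin ligases. Rab40b gave 309 units in GPHR F/F;Nes and 881 units in GPHR F/F (-0.93 ± 0.20). Rab40c gave 96.1 units in GPHR F/F;Nes and 251 units in GPHR F/F (-0.80 ± 0.20), with its probes at -1.33 and -0.28. The first of these was dim, at 6.66 units in GPHR F/F;Nes and 25.1 units in GPHR F/F, so the Rab40c value rests partly on a probe near background. Rab28, a Rab of cilia, was the highest, with 346 units in GPHR F/F;Nes and 414 units in GPHR F/F (0.33 ± 0.12), and Rab23, an inhibitor of Hedgehog signalling, stood at -0.09.

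Across compartments, the neuron-enriched Rab genes (Rab3a, Rab3b, Rab3c, Rab6b, Rab9b, Rab15, Rab26, Rab27b, Rab33a and Rab39b) all lay below 0. Their median was -0.57, against -0.08 for the 38 measured members of neither cell-type list and 0.07 for all genes. The highest was Rab3b, a Rab3 form of brain and endocrine cells, with 2009.6 units in GPHR F/F;Nes and 3314 units in GPHR F/F (-0.14 ± 0.20), and the lowest was Rab33a, given above. All 10 stayed below 0 under each scaling and probe rule tried, with Rab26 leaving the count under the stricter filter on dim probes. Median centring and spike-in scaling shifted all genes by -0.28 and -1.03, so genes below 0 could not cross it in those settings. The distance of their median from that of all genes ran from -0.80 to -0.47.

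The Rab genes best known from non-neuronal cells stood on the other side. Of 10 listed, 5 were measured, namely Rab7b, Rab32, Rab13, Rab34 and Rab38, and all 5 were above 0 with a median of 0.97. The lowest of them was Rab38, within its error, and Rab34, known from lysosome positioning and primary cilia, stood at 0.28 ± 0.20. With spike-in scaling 3 of the 5 lay below 0 and the median was -0.06, and 1 of 5 lay below 0 with median centring, quantile normalization, loess correction or normexp. The 2 lists stood apart under each way of processing, as the plot of list medians shows. Median centring, spike-in scaling and the deposited table only shift each array by a constant. These settings could therefore not change the gap between the lists. Both lists were chosen with earlier results of these data known. The 38 measured members of neither list include Rab3d at -0.38 and Rab37 at 0.48.

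**Figure D3:**
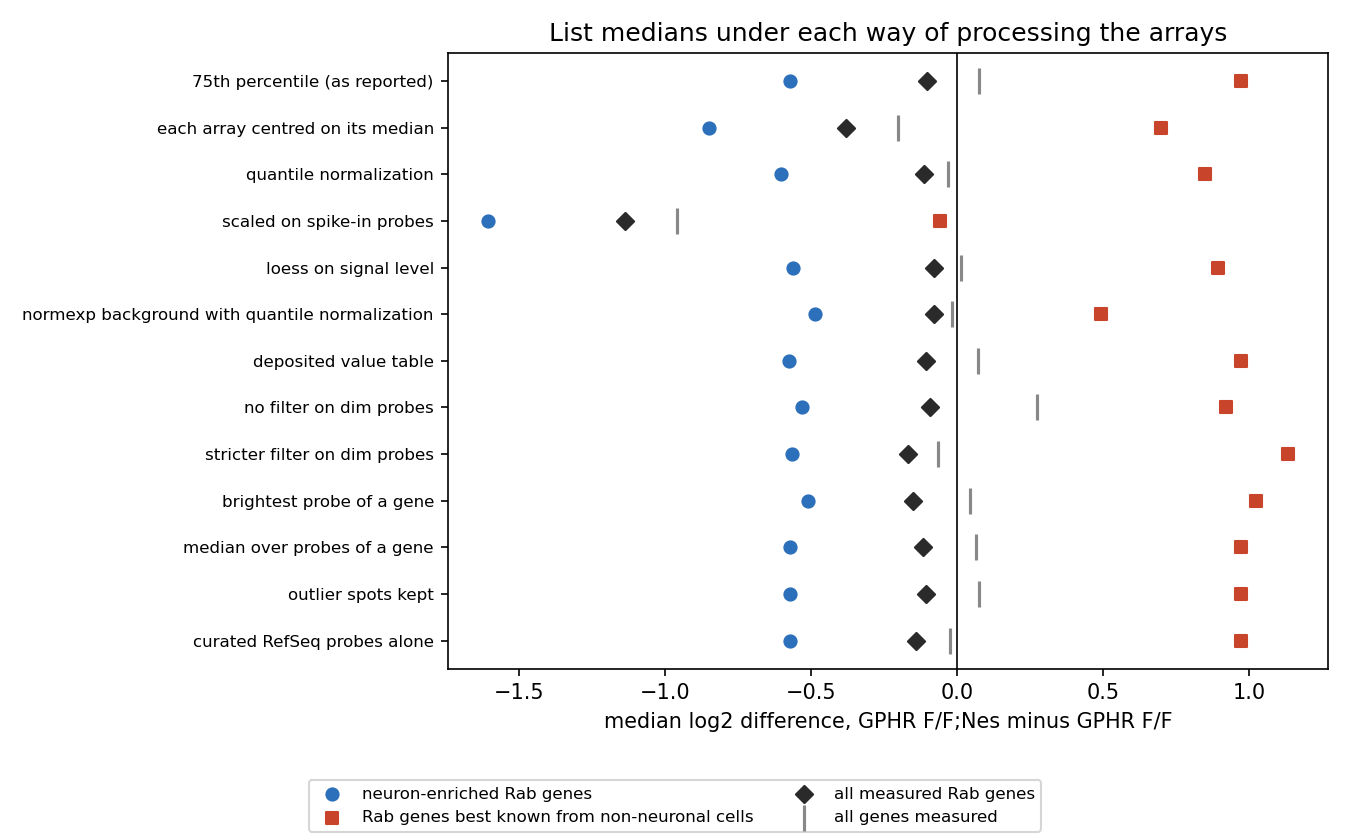
Median log2 difference (GPHR F/F;Nes minus F/F control, x axis) of the neuron-enriched Rab genes, the Rab genes best known from non-neuronal cells, all measured Rab genes and all genes, under each way of processing (rows). The neuron-enriched median lies below the all-gene median in every row and the non-neuronal median above it, while spike-in scaling moves all 4 markers left.

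Neuronal markers lay below 0, and the markers of other cell types lay on both sides of it. All 10 neuronal markers were below 0 (median -0.28), Nefm and Nefl, neurofilament genes, by -1.60 and -1.14, and their summed signal was 95.7 times the array's 75th percentile in GPHR F/F;Nes and 121 times in GPHR F/F. All 6 measured of 7 microglial markers were above 0 (median 1.46), with a summed signal of 2.67 in GPHR F/F;Nes and 1.59 in GPHR F/F on the same scale, while P2ry12, a marker of resting microglia, was not well above background on either array. Of the 6 markers of endothelium and mural cells, 3 of the 4 measured were above 0 (7.14 in GPHR F/F;Nes and 2.99 in GPHR F/F, with Cldn5 and Rgs5 not well above background). Of the 6 markers of meninges and fibroblasts, 5 were above 0 (9.88 in GPHR F/F;Nes and 7.30 in GPHR F/F). Of the 5 of choroid plexus all 3 measured were above 0 (5.39 in GPHR F/F;Nes and 0.57 in GPHR F/F), with Ttr at 5.35 and with Kl and Clic6 not measured. The astrocyte markers had 5 of 6 above 0 (21.4 in GPHR F/F;Nes and 16.02 in GPHR F/F) and those of the oligodendrocyte lineage 3 of 7, with a median of -0.19 (20.2 in GPHR F/F;Nes and 24.4 in GPHR F/F). Of the 3 blood markers, Hba-a1 stood at -0.28, and Hbb-b1 and Alas2 were at background (summed signal 0.20 in GPHR F/F;Nes and 0.20 in GPHR F/F). The part of these differences in the Rab values was not tested.

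The X-linked members also lay on 1 side. Rab9, Rab9b, Rab33a and Rab39b were all below 0, with a median of -0.51, against -0.08 for the 49 measured Rab genes elsewhere. Rab9b, Rab33a and Rab39b are also on the neuron-enriched list, and Rab9, which is not, stood at -0.21. The 2 arrays differed in Xist and in Y-linked genes, which goes with genotype for every gene, and the part of this in the X-linked values was not tested. The 7 neuron-enriched Rab genes outside chromosome X still had all members below 0, with a median of -0.56.

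Relatives that share a number formed 13 groups, and in 2 of them the highest and the lowest member lay over 1 log2 unit apart. Rab7b stood 1.97 above Rab7. Rab39, given by 16.2 units in GPHR F/F;Nes and 17.2 units in GPHR F/F (0.49 ± 0.25), stood 1.07 above Rab39b. The Rab33 pair was 0.98 apart, whereas Rab6a and Rab6b were 0.01 apart, Rab1 and Rab1b 0.05, and the 3 Rab5 genes 0.07. The middle 50% of all measured Rab genes lay between -0.33 and 0.05, so a gap under 1 log2 unit is usual for any pair of members.

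Cross-reaction between relatives bears on such pairs. Over 6251 pairs of probes from different members, the closest were a Rab3a and a Rab3c probe, with 43 identical letters of 60, and a Rab11b and a Rab25 probe, with 36. All other pairs had 35 or fewer. Only Rab3a and Rab3c, both below 0, thus had probes that alike. Probes were not compared with the transcripts of relatives, so these counts cannot show which members are free of cross-reaction.

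Agreement between probes of 1 gene is the main internal check these data allow. Of the 53 measured genes, 31 had several measured probes, and in 20 of them all probes lay on the same side of 0. In 11 they lay on both sides. The span passed 1 log2 unit only for Rab2b and Rab40c. The 82 measured probes to curated RefSeq mRNAs had 57 below 0 and a median of -0.15, and the 15 to other transcript models had 6 below 0 and a median of 0.00. The genes with the values farthest from 0 among these 31, namely Rab29, Rab13, Rab40c and Rab15, had all probes on 1 side.

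**Figure D4:**
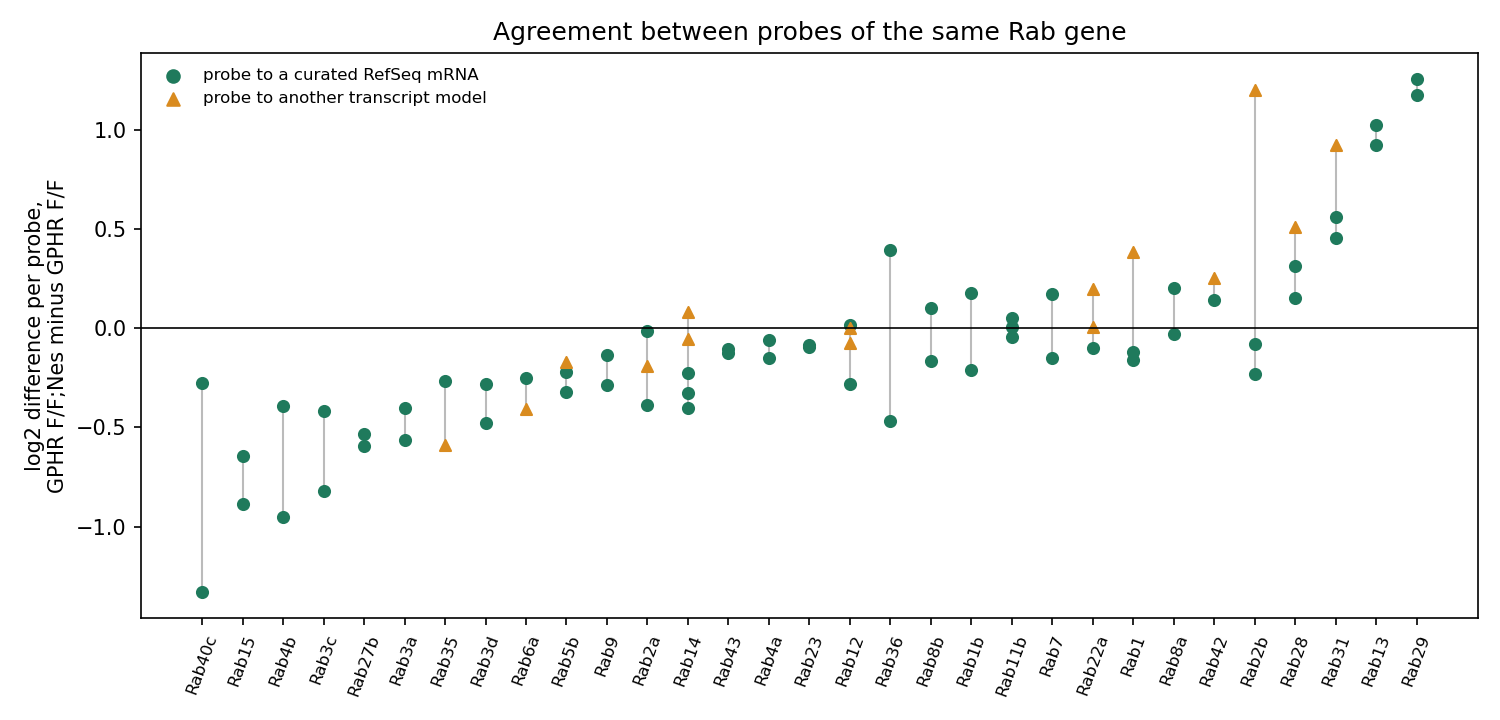
Log2 difference (GPHR F/F;Nes minus F/F control, y axis) of each measured probe for the 31 Rab genes with several measured probes, in order of the gene's mean; circles are probes to curated RefSeq mRNAs and triangles probes to other transcript models. Rab2b and Rab40c have the widest spread, and both probes of Rab29 and of Rab13 lie near or above 0.92.

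Of 106 other listed genes of the Rab cycle on the array, 103 were measured. None of them was at least 2-fold higher, against 7.93% of all genes, or at least 2-fold lower, against 1.37%. In all, 44 lay above 0 and 59 below, with a median of -0.04. Among the genes of delivery and prenylation, 8 of 10 lay below 0 (median -0.07). Chml, an escort protein for Rab prenylation, stood at -0.31, and Yipf5, a Golgi membrane protein, at 0.26.

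Among exchange factors, which load Rabs with GTP, 16 of 29 lay above 0 (median 0.02). Rin2 and Rin1, exchange factors for Rab5, stood at 0.77 and 0.63, and at the other end Rab3ip, which acts on Rab8, at -0.43 and Madd, which acts on Rab3, at -0.38. Of 27 GTPase-activating proteins, 18 lay below 0 (median -0.14). Rabgap1 stood at 0.79 on probes at -0.28 and 1.86, Tbc1d2, which acts on Rab7, at 0.76, Sgsm3 at -0.51 and Tbc1d24, an epilepsy gene in humans, at -0.41. Rabgap1 is thus a value on which 2 probes disagree.

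Of 41 listed effectors 38 were measured, 17 above 0 and 21 below (median -0.04). Doc2b, a calcium sensor of spontaneous release, was the lowest, with 344 units in GPHR F/F;Nes and 974 units in GPHR F/F (-0.92 ± 0.20), and Rabep1, a Rab5 effector, stood at -0.45. The synaptotagmin-like proteins Sytl1 and Sytl4, effectors of Rab27, were the highest at 0.92 and 0.89, both under 23 units on each array.

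The members without a measured difference were mostly non-neuronal. Rab44, a large Rab of blood cells, passed background only in GPHR F/F;Nes, with 7.49 units there and 4.89 units in GPHR F/F. This was on 1 probe with an error of 0.51, and its other probe passed on neither array. Set against the dimmest signal well above background on the GPHR F/F array (6.28 units), its normalised signal was 1.78-fold higher. That is not a strict lower limit, since a Rab17 probe at 6.81 units in GPHR F/F did not pass. Rab17, Rab19, Rab20, Rab25 and Rab27a were not well above background on either array, with at most 5.62 units averaged over probes, and no difference is given for them. Rab17 and Rab25 are known from epithelium and Rab27a from pigment and immune cells.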

How the data were processed

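TRIzol-extracted RNA was labelled with Cy3, per the labels' protocols. The authors deposited scanner output from Agilent Feature Extraction 11.5.1.1, per the submitters' processing notes. It gives the intensity of each spot, with background subtracted per the file headers. The deposited flags (other values, 0 or 1) mark spots well above background, saturated or outlying. No spot was saturated, and 51 outlier spots per array were left out. The deposited value table is on the log2 scale and equalled log2 signal plus 1 constant per array (-7.43 for GPHR F/F;Nes and -8.01 for GPHR F/F) within 0.001 for 99.9% of probes. Its column medians were -2.92 for GPHR F/F;Nes and -3.19 for GPHR F/F, its direction follows the signal, and the origin of the constants is not given in the sources.

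Spots of a probe were averaged on the log2 scale, the array's 75th percentile over 56603 probes was subtracted, and a gene's value was the mean of its probes well above background on both arrays (69.2% of probes passed in GPHR F/F;Nes and 67.0% in GPHR F/F). The number of arrays, 1 per genotype, limits the precision. Of the 59 members, 57 matched a RefSeq table (GRCm38.p6) by accession. Promoters come from RefSeq, and the build of the probe coordinates, per the file headers, is mm9. Probe positions relative to exons were not analysed here.

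The members and lists were chosen with earlier results of these data known. Named with values on both arrays are members past 2-fold, the highest and lowest of each compartment and cell-type list, the best known Rab of each compartment, members whose probes span over 1 log2 unit, and relatives over 1 log2 unit apart. Of other Rab-cycle genes, the 2 farthest from 0 in each direction of each list are named, except that 1 such value is not reported here. Further genes, and the sequences and motifs, were picked after their values were seen. Alternatives covered scaling, background correction, filters, probe rules and thresholds. The software was Python 3.11.15, numpy 2.4.6, pandas 2.3.3, R 4.3.3 and limma 3.58.1, and the calculation was tested on simulated data.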

Additional observations from a re-analysis of the deposited data

How the results depend on the processing

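Values could not be checked across animals, since each genotype had 1 array, and genes near background have larger errors. No paired analysis was possible because each genotype had a single sample. Of 151 alternative values for medians and counts, 118 moved by less than the median scanner error of a member (0.15) or, for counts, stayed within 1.5 times, and 33 moved further. Of 628 values for single genes, 158 moved by more than the gene's error. The 3 genes past 2-fold as reported kept their sign in every setting where they were measured. Among the other members some changed sign, such as Rab1, below 0 in 6 of 13 settings, and Rab22a, below 0 in 5 of 13. Others, such as Rab3a, did not. Relative to the 75th percentile, the median of all genes shifted by -0.28 with median centring, -0.11 with quantile normalization, -1.03 with scaling on 8 spike-in probes, 0.20 with no filter on dim probes and -0.14 with the stricter filter. Of all genes past 2-fold, 85.3% were higher as reported, 57.1% with median centring, 68.6% with quantile normalization, 1.25% with spike-in scaling, 74.8% with loess correction and 72.6% with the stricter filter. With median centring the medians were -0.38 for the Rab genes, -0.35 for ER-Golgi, -0.54 for secretory or synaptic vesicle, -0.44 for endosome, -0.155 for late endosome and lysosome, -0.72 for other sites, -0.85 for the neuron-enriched genes, 0.70 for the non-neuronal list and -0.31 for the regulators and effectors, and 5 Rab genes were at least 2-fold lower. With spike-in scaling the same medians were -1.14, -1.11, -1.29, -1.20, -0.91, -1.48, -1.60, -0.057 and -1.07, with 0 Rab genes at least 2-fold higher and 37 lower. The secretory median was -0.48 without genes that have a second well known site. Chosen after seeing the data, the secretory median without neuron-enriched genes was -0.033 and the late endosome median without X-linked genes 0.34. The median of the 4 other genes was -0.17 with normexp, -0.28 with the stricter filter and -0.19 with the brightest probe. The non-neuronal median was 0.49 with normexp and 1.13 with the stricter filter, which left 2 genes. The count of Rab genes at least 2-fold higher was 5 with no filter. At 1.5-fold, 5 Rab genes were higher and 7 lower, and at 3-fold 1 was higher. The cause of the shifts other than fewer genes tested was not tested.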

Other observations

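Rab7b and Rab29, both at least 2-fold higher in GPHR F/F;Nes, are neighbours, with their probes 159.9 kb apart on chromosome 1 (mm9), plus strand. Of the array's genes with a probe between them, Slc26a9 and Pm20d1 were not well above background and Slc41a1, a magnesium transporter, stood at 0.55. Beyond Rab29, Nucks1 stood at 0.46 and Elk4 at 0.42, and Cdk18 lay at -0.98. Within 500.0 kb on either side, 18 other array entries were measured. Their differences ran from -0.98 to 1.46 with a median of 0.17, and 1 of them, Nuak2, was at least 2-fold higher. Neighbours were looked up after the Rab7b and Rab29 values were seen.

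Among the 97 measured Rab probes, 13 matched the genome in a split span of over 60 bp. Of these, 9 were below 0, with a median of -0.23, against -0.12 for all 97.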
